A study of Mus musculus with 12 samples.

Results

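Umod and 5 transport genes of the loop of Henle were followed in embryonic mouse kidneys that carry or lack Pkd1. Besides Umod, the listed genes were Slc12a1, Kcnj1, Bsnd, Ptger3 and Kcnj10, and every array probe annotated to one of them was taken. These were 14 probes of 45281, for 5 of the 6 genes. Kcnj10 was not analysed here. A probe was kept where it stood out from the negative control beads (detection p under 0.05) on 3 or more of the 12 arrays. Of the 14 probes 12 were kept, among the 21526 kept of all. The least detected kept probes, 1 each for Slc12a1 and Kcnj1, passed on 6 arrays, and both probes left out, 1 for Kcnj1 and 1 for Ptger3, on 0. The brightest kept probe stood for its gene, and 14882 features were tested, the 5 genes among them.

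RNA of kidneys from CD-1 mouse embryos was hybridised to 12 arrays of the Illumina Mouse WG-6 BeadChip, a slide that carries several arrays, with 1 pair of kidneys per array and 3 arrays in each of 4 groups. The groups were wild type (WT, Pkd1+/+) and Pkd1-/- mutants at embryonic day E14.5, and the same at E17.5. Pkd1 codes for polycystin-1, and kidneys without it are free of cysts at the younger age and full of large ones at the older. WT and mutant embryos were littermates that the files do not pair. The null allele is carried by every cell of the mutants, so a difference cannot be placed in one cell type. Between 19397 and 20290 probes were detected per array. The Pkd1 probe itself was not lower in mutants, with WT against mutant log2 intensities of 6.67 ± 0.27 against 7.47 ± 0.30 at E14.5 (mean ± SD, n = 3) and 7.11 ± 0.44 against 7.75 ± 0.11 at E17.5. Where that probe lies relative to the altered part of the gene is not given, so it checks no label, and the groups are named as labelled.

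The thick ascending limb of the loop of Henle takes salt out of the tubular fluid without water. Sodium, potassium and chloride enter its cells through the cotransporter NKCC2 (Slc12a1), potassium returns to the lumen through the channel ROMK (Kcnj1), and chloride leaves on the blood side through channels that need the subunit barttin (Bsnd). Uromodulin (Umod) is a protein that these cells shed into urine, and loss of NKCC2, ROMK or barttin causes forms of Bartter syndrome in humans. Ptger3 codes for EP3, a receptor through which prostaglandin E2 lowers salt and water transport. Kcnj10 codes for a potassium channel subunit of the blood side of distal tubule cells.

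The 3 promoters below are shown because their genes rose together with age in both genotypes. Each is the 250 bases before an annotated RefSeq start in build GRCm38.p6, written 5′ to 3′ on the gene's strand. Capitals mark GTTAAT, part of the site that HNF1 factors bind, and CCAAT, a common promoter box, searched on both strands. The Umod window is chr7:119479263-119479512 on the minus strand, that of Slc12a1 chr2:125152350-125152599 on the plus strand, and that of Kcnj1 chr9:32393735-32393984 on the plus strand.
Umod: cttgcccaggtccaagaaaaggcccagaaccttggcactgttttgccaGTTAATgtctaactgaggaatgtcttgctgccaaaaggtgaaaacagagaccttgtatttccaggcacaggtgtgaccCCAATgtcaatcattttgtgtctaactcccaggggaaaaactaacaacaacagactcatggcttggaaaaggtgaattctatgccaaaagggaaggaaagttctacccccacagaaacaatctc
Slc12a1: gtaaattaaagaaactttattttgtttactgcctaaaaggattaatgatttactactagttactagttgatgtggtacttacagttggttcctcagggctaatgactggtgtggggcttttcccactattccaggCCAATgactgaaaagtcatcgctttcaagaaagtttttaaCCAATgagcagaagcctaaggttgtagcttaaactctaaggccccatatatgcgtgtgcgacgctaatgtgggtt
Kcnj1: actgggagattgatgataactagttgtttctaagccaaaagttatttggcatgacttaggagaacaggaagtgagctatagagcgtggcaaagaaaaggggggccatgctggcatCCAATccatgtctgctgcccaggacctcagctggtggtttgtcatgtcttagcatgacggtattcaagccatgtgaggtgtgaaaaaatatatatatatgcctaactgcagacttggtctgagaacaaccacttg
Of the 6 listed genes 5 had an entry in the RefSeq promoter table, all but Bsnd. GTTAAT stood in the Umod window, starting 202 bases before the start, and in none of the other windows of listed genes. It occurs in 6.43% of 32851 RefSeq promoter windows of this length. CCAAT, present in 33.8% of them, occurred 1 time in the Umod window, 2 times in that of Slc12a1 and 1 time in that of Kcnj1. Neither AAGGTCA, a site of estrogen-related receptors (4.08% of windows), nor TATAAA (12.4%) was in a window of a listed gene. GTTAAT and CCAAT matches did not overlap. These are matches of letters and show no binding.

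At E17.5 Umod was the 1 gene of the 5 that passed the test between genotypes, and it was lower in mutants. Its log2 intensity was 11.46, 11.22 and 11.59 on WT replicates 2, 38 and 41, and 9.25, 9.99 and 10.27 on mutant replicates 12, 40 and 42. Every mutant lay below every WT, and the mutants were spread more widely (SD 0.52 against 0.19). The group means of 11.42 and 9.84 differed by a log2 fold change of -1.59 (standard error 0.36, 95% interval -2.38 to -0.80), so Umod was 3.01-fold lower in mutants (adjusted p = 0.0403 from limma, Benjamini-Hochberg over all features). The second Umod probe read 10.68, 10.30 and 10.79 in WT and 8.21, 8.95 and 9.32 in the Pkd1-/- kidneys, a log2 fold change of -1.76 (adjusted p = 0.0308 over all kept probes). Of all tested features 3.17% were called at this age and 1.39% were called lower, where 1 of the 5 genes was. In RNA of whole kidneys, fewer cells of a type and less RNA per cell cannot be told apart.

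**Figure D1:**
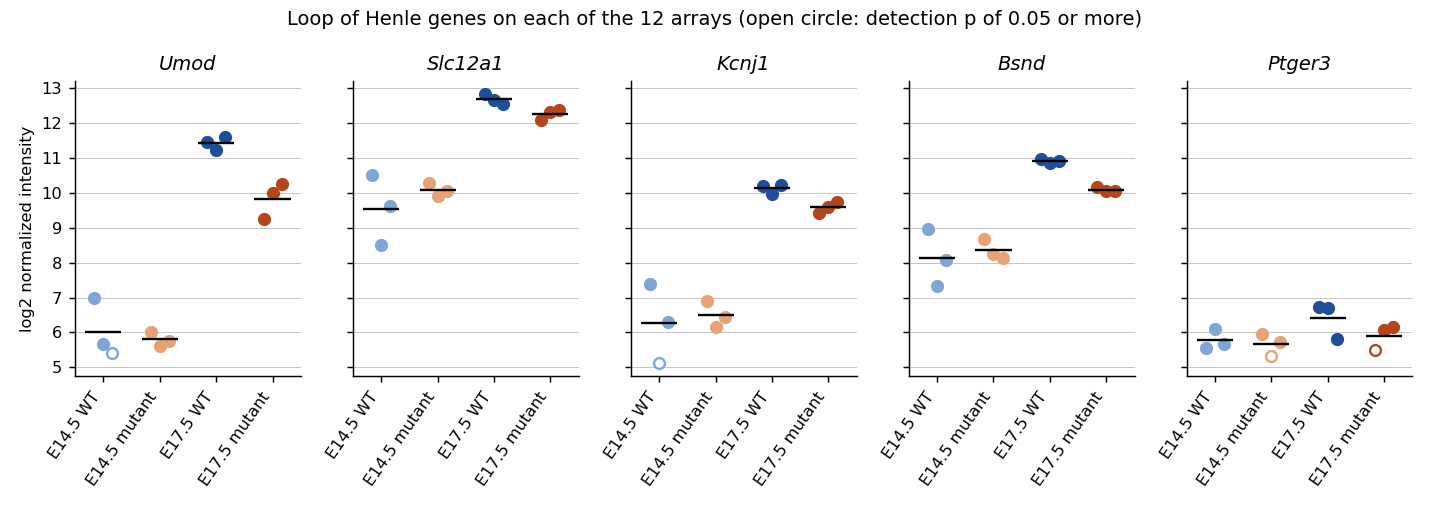
Each panel shows the log2 normalized intensity of a gene's brightest kept probe on the 12 arrays, by group, with the group mean as a bar and arrays not past the detection threshold as open circles. Umod fell from a mean of 11.42 in WT to 9.84 in mutants at E17.5, while its E14.5 groups lay near 6 and overlapped. Levels of different probes are not comparable.

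The Umod call sat close to the threshold. It was lost when any of 8 of the 12 arrays was left out (E14.5 mutant replicates 35, 59 and 65, all 3 E17.5 WT replicates, and E17.5 mutant replicates 12 and 40), with adjusted p of 0.0539 to 0.113, while the log2 fold change over all 12 such fits stayed between -1.80 and -1.30. It was also lost under 7 of 12 other processing settings, at -1.61 to -1.44, and under no setting did the sign turn.

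Bsnd separated the genotypes with the least spread within groups. WT replicates 2, 38 and 41 read 10.96, 10.84 and 10.91 on the log2 scale, and mutant replicates 12, 40 and 42 read 10.17, 10.04 and 10.06. The groups did not overlap and each had an SD under 0.1 (0.056 in WT, 0.069 in mutants). The log2 fold change of -0.81 (standard error 0.31, interval -1.49 to -0.14) did not pass in the fit of all 4 groups (adjusted p = 0.171 from limma). That fit shares 1 spread over all groups, and the E14.5 WT arrays had an SD of 0.82 for Bsnd. Fitted to the 6 E17.5 arrays alone, Bsnd passed (adjusted p = 0.0128 from limma), and it also passed without E14.5 WT replicate 34 (adjusted p = 0.0434). The remaining pass came with array weights, which called 2081 of all features at this age against 472 in the main fit. Under 23 of 26 alternatives Bsnd did not pass, with an adjusted p of up to 0.331 from limma.

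For Slc12a1, E17.5 WT replicates 2, 38 and 41 read 12.82, 12.65 and 12.55, and mutant replicates 12, 40 and 42 read 12.07, 12.32 and 12.37. All 3 mutants were again below all 3 WT, by a smaller margin, and the difference of -0.42 on the log2 scale did not pass (adjusted p = 0.555 from limma, standard error 0.36). The other 5 Slc12a1 probes had log2 fold changes of -0.78, -0.77, -0.43, -0.68 and -0.24, with adjusted p over all kept probes of 0.0565 to 0.498. The interval of the brightest probe ran from -1.22 to 0.38, which takes in a fall as large as that of Bsnd.

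Kcnj1 read 10.20, 9.96 and 10.21 on the E17.5 WT arrays and 9.43, 9.59 and 9.74 on the mutant arrays. These groups did not overlap either, and the log2 fold change was -0.54 (standard error 0.42, interval -1.46 to 0.37, adjusted p = 0.501 from limma). Its dimmer probe had -0.32, with an adjusted p of 0.302 over all kept probes.

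The EP3 receptor gene Ptger3 passed detection on 10 of 12 arrays, the fewest of the 5 genes. At E17.5 it read 6.73, 6.69 and 5.82 in WT and 5.48, 6.08 and 6.17 in mutants, and the groups overlapped through WT replicate 41. The log2 fold change of -0.51 (standard error 0.27, interval -1.10 to 0.09) had an adjusted p of 0.328 from limma. The interval takes in both no difference and a fall as large as that of Bsnd.

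Thus 4 of the 5 genes had E17.5 groups that did not overlap, all with mutants lower, against 10.4% of all features lower and 24.2% in either direction. The median log2 fold change of the 5 genes was -0.54, and that of all features 0.02. Among the 12 kept probes, all 12 had values below 0 and 10 did not overlap, but probes of 1 gene read the same RNA and are no separate evidence.

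**Figure D2:**
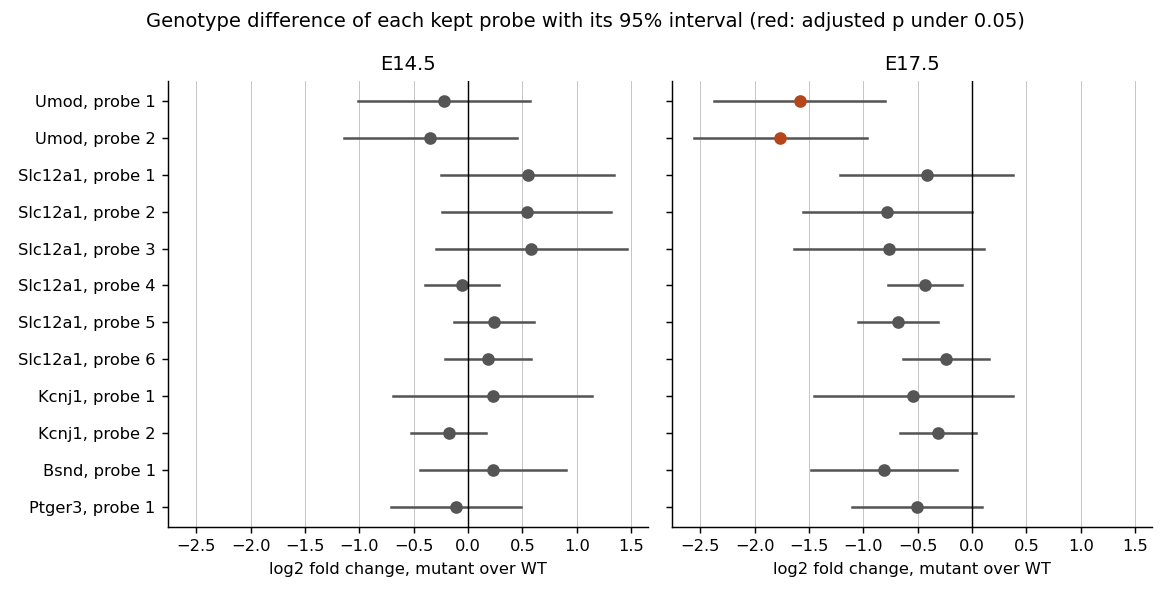
Points are log2 fold changes of mutants over WT for the 12 kept probes at E14.5 and E17.5, with lines for 95% intervals and red for an adjusted p under 0.05 over all kept probes. At E17.5 all 12 points lie below 0 and only both Umod probes are red, whereas at E14.5 the points lie on both sides of 0.

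Umod also changed relative to the other genes within the same array. The log2 intensity of Umod minus that of Slc12a1 was -1.36, -1.44 and -0.96 on E17.5 WT replicates 2, 38 and 41, and -2.82, -2.33 and -2.11 on mutant replicates 12, 40 and 42. The groups did not overlap, and the mean was 1.17 lower in mutants, a difference of -1.17. The Slc12a1 reading was that of its brightest probe, which had a log2 fold change of -0.42 between genotypes. Its next brightest probes had -0.78 and -0.77, so the size of this difference depends on the probe. Against Kcnj1 the difference was -1.05 and against Bsnd -0.77, without overlap in either. These values are a description, since 3 arrays against 3 allow no exact p below 0.1, and all 3 share the Umod measurement. They show unequal change and not that any of the other genes held its level. At E14.5, where Umod lay near the level of detection, Umod minus Slc12a1 was also lower in mutants, with a difference of -0.77. Those groups did not overlap either (-4.30 to -4.27 in mutants against -4.21 to -2.82 in WT). Against Kcnj1 and Bsnd the E14.5 groups overlapped. The share of other gene pairs without overlap was not computed.

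**Figure D3:**
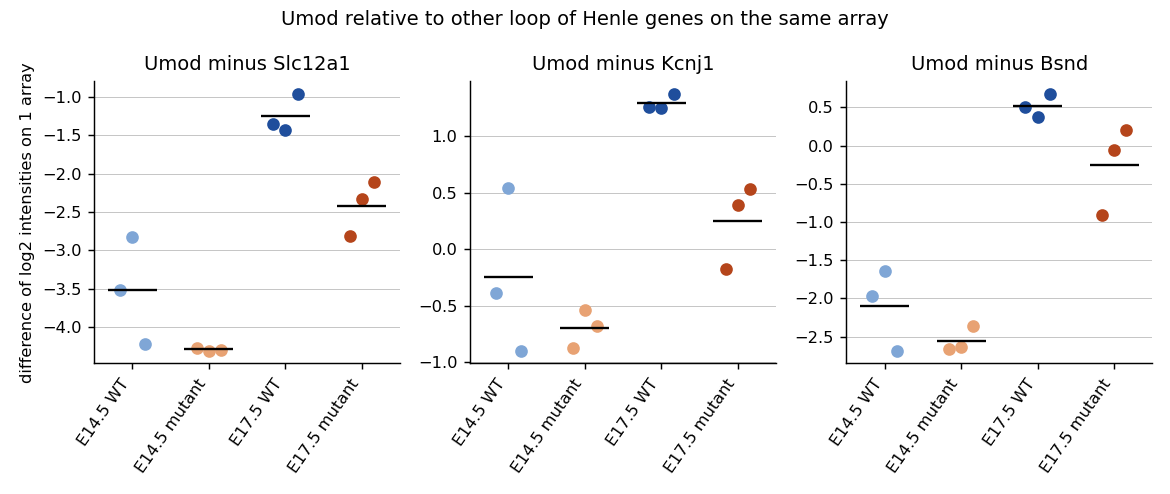
Points give the difference between the log2 intensities of Umod and of Slc12a1, Kcnj1 or Bsnd on each array, with group means as bars and a separate scale in each panel. At E17.5 every mutant lies below every WT in all 3 panels, for example -2.82 to -2.11 against -1.44 to -0.96 for Slc12a1. At E14.5 every mutant also lies below every WT for Slc12a1, and the groups overlap for Kcnj1 and Bsnd.

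At E14.5 none of the 5 genes passed the test between genotypes, where 0.0538% of all features did, 8 in number. Umod read 6.99, 5.67 and 5.41 on WT replicates 34, 57 and 58 and 6.02, 5.61 and 5.77 on mutant replicates 35, 59 and 65, so it lay near the level of detection, which was 5.44 to 5.58 on the log2 scale. The WT spread enclosed the mutants. Slc12a1 was well detected, with 10.50, 8.50 and 9.62 in WT and 10.29, 9.91 and 10.06 in mutants, and again the WT arrays lay on both sides of the mutants.

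Log2 fold changes at this age were -0.22 for Umod, 0.55 for Slc12a1, 0.23 for Kcnj1, 0.23 for Bsnd and -0.11 for Ptger3, with standard errors of 0.27 to 0.42 and adjusted p of 0.9998 from limma for each. The number of the 5 genes at an unadjusted p under 0.05 was 0, against 3.20% of all features. No group was apart from the other for any of the 5, against 9.12% of all features. The intervals were wide, from -1.01 to 0.57 for Umod and from -0.25 to 1.34 for Slc12a1, so a difference as large as that of Bsnd at E17.5 lay within the first.

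At E14.5 the WT arrays were spread more widely than the mutant arrays for Umod, Slc12a1, Kcnj1 and Bsnd. WT replicate 34 was the highest of its group for Umod, Slc12a1, Kcnj1 and Bsnd, and replicate 57 the lowest for Slc12a1, Kcnj1 and Bsnd. Kcnj1 read 7.38, 5.13 and 6.30 on replicates 34, 57 and 58, and Bsnd 8.96, 7.32 and 8.09, against 6.89, 6.15 and 6.44 and 8.68, 8.25 and 8.13 in the mutants. The same order held for the mean log2 intensity of 11 other thick ascending limb genes, 8.63, 7.55 and 8.03 on those WT replicates and 8.02 to 8.11 in the mutants. It held too for 14 proximal tubule genes, with 6.75, 5.64 and 6.15. The part of this in the E14.5 results was not tested. Without replicate 34 the log2 fold change of Umod turned to 0.26, and without replicate 57 those of Kcnj1 and Bsnd turned to -0.35 and -0.17.

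From E14.5 to E17.5 Umod, Slc12a1, Kcnj1 and Bsnd rose steeply in both genotypes. In WT, Umod went from 6.02 ± 0.85 (SD, n = 3) to 11.42 ± 0.19 on the log2 scale, an estimated 42.3-fold rise (log2 fold change 5.40, standard error 0.36, adjusted p = 1.93e-06 from limma) in which the lower level was detected on 2 of 3 arrays. Kcnj1, also detected on 2 of 3 arrays at E14.5, rose 14.5-fold, from 6.27 ± 1.13 to 10.13 ± 0.14. Slc12a1 rose 8.78-fold, from 9.54 ± 1.01 to 12.67 ± 0.13. Bsnd rose 6.88-fold, from 8.12 ± 0.82 to 10.90 ± 0.06. Of the 5 genes 4 were higher, where 20.2% of all features were higher and 43.6% changed in either direction, and these 4 were also the ones without overlap (23.8% of all features were apart and higher).

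Ptger3 was the exception. Its E14.5 WT arrays read 5.55, 6.11 and 5.66, which overlapped with the E17.5 readings of 6.73, 6.69 and 5.82. The log2 fold change of 0.64 missed the threshold (standard error 0.27, adjusted p = 0.0771 from limma), and without E17.5 WT replicate 41 it was 0.94 with an adjusted p of 0.0130.

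In mutants the same 4 genes rose, against 21.7% of all features higher and 43.0% changed. Umod went from 5.80 ± 0.21 to 9.84 ± 0.52, a 16.4-fold rise (log2 fold change 4.04, standard error 0.36, adjusted p = 1.51e-05 from limma). Kcnj1 rose 8.52-fold, Slc12a1 4.49-fold and Bsnd 3.33-fold, without overlap between the ages (27.6% of all features were apart and higher). For Ptger3 the groups overlapped and the log2 fold change was 0.25 (adjusted p = 0.490 from limma). Over the kept probes, 11 of 12 passed with age in WT and 11 in mutants, all but that of Ptger3. Of all 21526 kept probes 9289 passed in WT and 9384 in mutants, in either direction. Probes of 1 gene read the same RNA and are no separate evidence. The dimmer Kcnj1 probe was detected on no E14.5 array, so its rise is a bound, at least 3.54-fold in WT and at least 2.84-fold in mutants. The same held for the dimmest kept Slc12a1 probe, at least 1.71-fold in WT and at least 1.44-fold in mutants. The second Umod probe was detected on no E14.5 mutant array, so its rise in mutants is also a bound, at least 10.03-fold.

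Each of the 5 genes had a smaller estimated rise in mutants than in WT, but the difference between the rises passed the test for none of them, where 0.175% of all features passed. It was -1.36 on the log2 scale for Umod (standard error 0.51, interval -2.48 to -0.25, unadjusted p = 0.0209 and adjusted p = 0.387 from limma), -1.05 for Bsnd (adjusted p = 0.432), -0.97 for Slc12a1, -0.77 for Kcnj1 and -0.39 for Ptger3. Unadjusted, 2 genes were under 0.05, Umod and Bsnd, against 10.7% of all features. For Slc12a1 this depended on the probe. Its brightest had an unadjusted p of 0.0855 from limma, and its other probes 0.0224, 0.0356, 0.112, 0.00229 and 0.128. None of these passed over all kept probes, with adjusted p of 0.250 or more. The 4 comparisons share arrays, so the fall at E17.5 and the smaller rise are not separate observations.

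In order of level, E17.5 WT stood first and E17.5 mutants second for all 5 genes. For Umod these neighbours differed past the threshold and for the others they did not. For Umod, Slc12a1, Kcnj1 and Bsnd every E17.5 array of either genotype stood above every E14.5 array, and the E14.5 groups did not differ beyond their spread. For Ptger3 each group overlapped with its neighbour in the order.

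**Figure D4:**
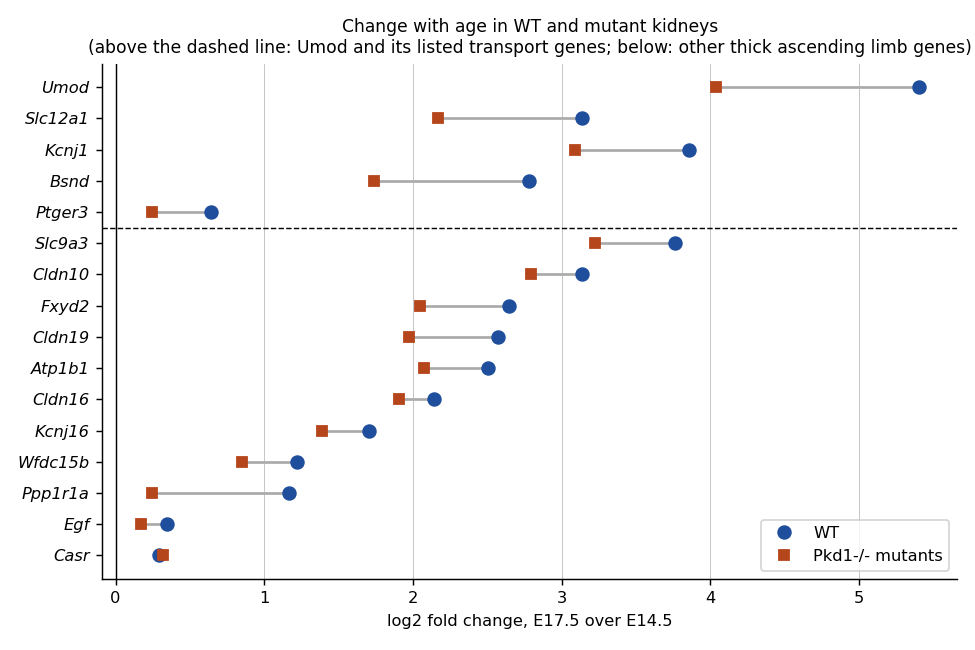
Circles (WT) and squares (Pkd1-/- mutants) give the log2 fold change from E14.5 to E17.5, for the 5 measured genes above the dashed line and for 11 other thick ascending limb genes below it. The square lies left of the circle for all 5 genes, from 4.04 against 5.40 for Umod to 0.25 against 0.64 for Ptger3, and for all others but Casr.

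Other genes of the thick ascending limb were described from a list of 18 transport, tight junction and marker genes, of which 15 had an annotated probe and 11 were tested. In WT 10 of the 11 rose with age and in mutants 9, where 20.2% and 21.7% of all features were higher. The list medians were 2.14 and 1.91 on the log2 scale, against -0.05 and -0.02 over all features. With genes that no E14.5 array of the genotype detected set at their bound, the mutant median was 1.53 and the WT median still 2.14. In WT the sodium-proton exchanger Slc9a3 rose 13.6-fold, the claudin of the cation pore Cldn10 8.79-fold, the sodium pump regulator Fxyd2 6.27-fold and the magnesium and calcium claudin Cldn19 5.95-fold. RNA of whole kidneys does not place a listed gene's change in the thick ascending limb. Of 14 tested proximal tubule genes 13 rose in WT too, with a list median of 3.57 (3.32 with genes at their bound). Egf, which codes for a growth factor of distal tubule cells, passed in neither genotype (log2 fold change 0.34 in WT and 0.17 in mutants).

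The median of these 11 between genotypes at E17.5 was -0.33, against 0.02 over all features. Of them 1 was called, lower in mutants, where 1.39% of all features were. This was Ppp1r1a, an inhibitor of protein phosphatase 1, which read 11.05 ± 0.05 (SD, n = 3) in WT against 10.19 ± 0.03 in Pkd1-/- kidneys (log2 fold change -0.85, adjusted p = 0.00144 from limma). Fxyd2, Slc9a3 and Cldn19 had values of -0.64, -0.72 and -0.72 with adjusted p of 0.388, 0.300 and 0.157, and Kcnj16, a partner subunit of Kcnj10, had -0.05. At E14.5 none of the 11 was called, and the median was -0.01.

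Of 13 listed kinases, adaptors and trafficking proteins that act on NKCC2, 11 were tested. With age 9 were higher in WT and 9 in mutants, where 20.2% and 21.7% of all features were. The list medians were 0.92 and 0.76 on the log2 scale, with up to 1.41 in WT for Mal, a protein of apical trafficking. Between genotypes at E17.5 none of the 11 was called, with the smallest p for the kinase Sgk1 (log2 fold change -0.40, adjusted p = 0.156 from limma) and for Oxsr1, a kinase that activates the cotransporter (0.19, adjusted p = 0.224). Wnk4, a kinase upstream of Oxsr1, had 0.02.

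In the prostaglandin E2 pathway, in which Ptger3 is a receptor, 6 of 11 genes were tested. Between genotypes at E17.5, 1 was called, where 3.17% of all features were. Abcc4, which exports prostaglandins among other anions, was higher in mutants (log2 fold change 0.64, adjusted p = 0.0185 from limma). The synthase Ptges had -0.22 and the degrading enzyme Hpgd -0.00 (adjusted p = 0.424 and 0.996). With age 3 of the 6 rose in WT and 3 in mutants, the transporter Slco2a1 most (1.93 and 2.13). The list medians were 0.15 and 0.23, and 20.2% and 21.7% of all features were higher.

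Relatives of the channel, the cotransporter and uromodulin gave no call between genotypes at E17.5. Of 13 other inward rectifier subunits, Kcnj16 again among them, 6 were tested, with Kcnj11 at -0.35 and Kcnj8 at -0.39 (adjusted p = 0.202 and 0.224 from limma), and 3 rose with age in WT and 2 in mutants. Kcnj15 rose most, with log2 fold changes of 3.34 and 3.35. Of 8 other SLC12 cotransporters 6 were tested, and Slc12a3, the thiazide-sensitive cotransporter of the distal convoluted tubule, had -0.40 (adjusted p = 0.0543) and Slc12a2 0.38 (adjusted p = 0.124). With age 1 of these 6 rose in WT, Slc12a3, and 3 in mutants. The list medians with age were 0.55 in WT and 0.19 in mutants for the rectifier subunits. For the cotransporters they were 0.19 and 0.30. Of all features 20.2% were higher with age in WT and 21.7% in mutants. Hpn, which codes for hepsin, the protease that releases uromodulin from the cell surface, had -0.01 between genotypes (adjusted p = 0.986) and rose by 1.68 in WT and 1.72 in mutants, and the Umod relative Oit3 had 0.13 between genotypes.

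Of 12 transcription factors of the intermediate and distal nephron 9 were tested. With age 8 rose in WT and 6 in mutants, where 20.2% and 21.7% of all features were higher. The list medians were 0.77 and 0.66 on the log2 scale. Between genotypes at E17.5, 1 was called, where 3.17% of all features were. This was Esrrb, an estrogen-related receptor, which read 8.36 ± 0.16 in WT against 7.67 ± 0.28 in Pkd1-/- kidneys (log2 fold change -0.70, adjusted p = 0.0394 from limma). It was detected on none of the E14.5 arrays, so its rise was at least 7.29-fold in WT and at least 4.50-fold in mutants. Ppargc1a, a coactivator of mitochondrial genes, had -0.51 (adjusted p = 0.0672) and Esrrg -0.21.

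Of 5 listed genes of the thin limbs of the loop 4 were tested. With age 3 of the 4 passed as higher in WT, among them Bst1, which no WT array detected at either age, and 3 in mutants, with medians of 1.00 and 2.21 on the log2 scale (2.14 in mutants with Bst1, detected on no E14.5 mutant array, at its bound). Of all features 20.2% were higher with age in WT and 21.7% in mutants. Between genotypes at E17.5, 2 were higher in mutants and none lower, with a median of 0.61 over the 4. Of all features 3.17% were called at this age in either direction. Bst1, an ectoenzyme, was detected on none of the WT arrays and on all 3 mutant arrays, where it was at least 4.49-fold higher (adjusted p = 2.43e-05 from limma). Cryab, a small heat shock protein, read 8.63 ± 0.11 in WT against 9.56 ± 0.21 in Pkd1-/- kidneys (log2 fold change 0.93, adjusted p = 0.0255). Neither is restricted to the thin limb. The water channel Aqp1, which the proximal tubule also makes, had -0.34 (adjusted p = 0.431) and the urea transporter Slc14a2 had 0.29 (adjusted p = 0.289).

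Some markers of other cell types were called between genotypes at E17.5 as well. Of all features 1.39% were called lower in mutants at this age and 3.17% in either direction. Of 14 tested proximal tubule genes 6 were lower in mutants and none higher, with log2 fold changes of -4.29 for Kap, -4.21 for Miox, -2.95 for G6pc and -2.56 for Dpep1, and the mean log2 intensity of the 14 was 9.44 to 9.93 on the WT arrays and 8.10 to 8.36 on the mutant arrays. In the intercalated cell list 3 of 4 were lower, Slc4a1 (-1.85), Slc26a4 (-0.77) and Foxi1 (-0.62). With age in WT 2 of these 4 rose, Slc26a4 and Foxi1, where 20.2% of all features were higher. Slc4a1 did not pass with age in WT (log2 fold change 0.80, adjusted p = 0.0738 from limma). Which cells gave the Slc4a1 RNA was not tested. In the distal convoluted tubule list 1 of 6 was lower, Pvalb (-1.48). None was called among 7 collecting duct, 4 podocyte, 6 cap mesenchyme, 6 early nephron, 4 smooth muscle, 3 neuron and 1 adrenal cortex genes, and no macula densa or glial gene could be tested. Liver genes differed by array: the mean of 5 was 12.19, 7.98 and 9.12 on E17.5 WT replicates 2, 38 and 41 and 7.15 to 7.64 in mutants, and 1 of them, Ttr, was lower in mutants. The Umod reading of replicate 2 lay between those of the other WT arrays, and without this array the Umod log2 fold change was -1.57 (adjusted p = 0.105). The part of these markers in the Umod result was not tested.

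The named genes most like Umod over the 12 arrays, by Pearson's r, were Atp6v1c2, a proton pump subunit (r = 0.997), the phospholipid enzyme Lpcat3 (0.993), the kinase Nuak2 (0.992), Mfsd4b5 (0.992), the mitochondrial acetate enzyme Acss1 (0.991), Nlrp6 (0.990), Esrrb (0.990), Cnnm2 of magnesium handling (0.989), the ketoglutarate receptor Oxgr1 (0.989) and the fatty acid enzyme Acadm (0.989). All 12 points share the step from E14.5 to E17.5, so r is high for many genes. Between genotypes at E17.5 the log2 fold changes of these 10 were all below 0, from -1.16 for Mfsd4b5 (adjusted p = 0.00891 from limma) to -0.21 for Lpcat3 (adjusted p = 0.171), but the same arrays entered r. Kcnj1 ranked 163, Bsnd 192, Slc12a1 421 and Ptger3 3658 in likeness to Umod among all tested features, unnamed probes included. Slc12a1 and Kcnj1 were closer to each other (r = 0.993), and Kcnj1 was the feature ranked 2 in likeness to Slc12a1.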

How the data were processed

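Kidney RNA was measured on 12 one-colour arrays, grouped by the labelled genotype and age. The authors summarised beads in BeadStudio and deposited intensities that were background-subtracted but not normalized between arrays, each with a detection p-value against the negative controls. They also deposited a table of intensities after subtraction and quantile normalization, used here as an alternative. The submitters' notes name limma.

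From the first intensities, background was corrected by the normexp model with noise taken from the detection p-values (offset 16), and arrays were quantile normalized and log2 transformed in limma 3.58.1 (R 4.3.3). The offset compresses fold changes of dim probes. Probe symbols came from the platform annotation (34885 probes with 1 symbol, 18 with several, 10378 with none). The brightest kept probe stood for a gene, and unnamed probes for themselves. A linear model of 4 group means with empirical Bayes variances compared genotypes within age, ages within genotype and the difference between the ages. A Benjamini-Hochberg adjusted p under 0.05 over 14882 features was called. Intervals are 95%. Where no array of a group detected a gene, the fold is taken against the level of detection and written "at least". The number of arrays limits the precision. Replicates are separate kidney pairs, and p-values measure the spread between them. The fit was tested on simulated data.

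The genes and the 21 gene lists were chosen with earlier results of these data known. Per list, up to 4 called genes of largest change were named, or up to 2 of smallest p where none was called. Others named for their role were chosen after their values were seen, and the 10 genes most like Umod by r. Alternatives were background correction, normalization, filter, probe rule, samples in the fit, the authors' table, variance settings, array weights, the study's thresholds, and leaving out each array. One further alternative, leaving out E14.5 WT replicate 34 and E17.5 WT replicate 2 together, was added after seeing the data.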

Additional observations from a re-analysis of the deposited data

Results flagged for a closer look

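None of the 5 genes had a genotype difference that differed between the ages by the test of the interaction in limma. Among the 113 tested genes of the lists, 6 did, where 0.175% of all features did. The genotype difference at E17.5 minus that at E14.5, on the log2 scale, was -0.92 for Ppp1r1a (adjusted p = 0.0302), the thick ascending limb gene that was lower at E17.5. It was 2.39 for Bst1 of the thin limb list (adjusted p = 0.00105). In the proximal tubule list it was -4.03 for Miox (adjusted p = 0.000687), -4.27 for Kap (adjusted p = 0.0290), -2.43 for Dpep1 (adjusted p = 0.000264) and -3.10 for G6pc (adjusted p = 0.000776).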

How the results depend on the processing

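Of 630 values of the 5 genes under alternatives, 603 kept their direction and their side of the threshold. The Umod difference at E17.5 stayed below 0 throughout, from -1.80 to -1.27, but its call was lost in 15 of 25 alternatives. The number of the 5 genes called at E17.5 was 0 with no further background correction, plain subtraction, cyclic loess, median scaling, no filter, the authors' table, or trend and robust variances, and 0 among the 2 genes left when detection on all 12 arrays was required. It was 2 with only the E17.5 groups and 2 with array weights, both times Umod and Bsnd, and it ran from 0 to 2 when arrays were left out in turn. The age differences gave 2 of the 2 genes left under detection on all 12 arrays in WT and 2 in mutants, and otherwise 4, except for 5 in WT with array weights or without E17.5 WT replicate 41, where Ptger3 was added. The study's thresholds on the difference between the ages gave 2.

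At E14.5, signs turned for Umod with array weights (0.17) and without E14.5 WT replicate 34, alone or with E17.5 WT replicate 2 (0.26 each), for Kcnj1, Bsnd and Ptger3 (0.057) without WT replicate 57, and for Ptger3 without mutant replicate 59. With arrays left out in turn the values ran from -0.53 to 0.26 for Umod, from -0.35 to 0.78 for Kcnj1, from -0.17 to 0.65 for Bsnd and from -0.26 to 0.064 for Ptger3, and the cause was not tested. Median scaling moved the median of all features by -0.12 for age in WT and 0.13 for the difference between the ages, and no sign of the 5 genes turned with it. Over all features, calls at E17.5 numbered 472, 135 to 523 when arrays were left out, and 143 to 2081 under other settings. At E14.5 they numbered 8, 4 to 11 and 2 to 48, and for the difference between the ages 26, 18 to 39 and 2 to 332. For age they numbered 6491 in WT, 5213 to 6822 when arrays were left out, and 1320 to 9289 under other settings. In mutants they numbered 6404, 5072 to 6774 and 1299 to 9384. The 1320 and 1299 came with the study's thresholds. The 9289 and 9384 came when each of the 21526 kept probes was a feature. Settings that change the filter or the probe rule test another number of features. Umod passed detection on 2 of 3 WT arrays at E14.5, and Ptger3 on 10 of 12 arrays. No paired analysis was possible because the labels give no litter, so litters shared by arrays were not taken into account. The slide as a block was not run, since the files used here name no slides.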
